A study of Homo sapiens with 40 samples.

Results

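Polysomal and subpolysomal RNA of HEK293 cells treated with control siRNA were compared, to ask which transcripts of these cells were found with many ribosomes and which with few or none. The 8 libraries were taken by their labels out of 40 in the series: 4 of subpolysomal RNA (sucrose gradient fractions 1 to 5, pooled) and 4 of polysomal RNA (fractions 6 to 11, pooled). HEK293 is an established human embryonic kidney line. By their labels all 8 libraries come from cells given the control siRNA and none from untransfected cells, but the CNOT1 count of 1 library goes against its label. Cycloheximide was present at lysis. Nuclei were pelleted before the gradient, equal masses of RNA from each pool went into a stranded poly(A) kit, and neither the labels nor the methods say whether the 4 replicates were separate cultures. The p-values below therefore measure the spread between these samples, which may be technical.

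An mRNA that is being read carries a train of ribosomes, and the heavier the train, the further the mRNA sediments in sucrose. The light fractions hold free ribonucleoprotein particles, initiation complexes and single ribosomes, and the heavy fractions hold polysomes. Long reading frames have room for more ribosomes, while a small reading frame can be read well and still carry few. Values below are CPM, the counts of a gene per M counts of the library after scaling by TMM factors, which is a share of each library and not a number of molecules. A log2 fold change is polysomal over subpolysomal, and 0 marks an RNA with the same share in both pools, not an equal split of its molecules. The pools also average over many cells, so a shift in every cell and a shift in some of the cells cannot be told apart.

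Library totals ran from 16.5 to 25.8 M counts for subpolysomal and from 23.6 to 27.3 M for polysomal RNA. The neurofilament mRNAs NEFM and NEFL, which HEK293 cells are known to express, stood at 661 CPM or above in every library, and the leukocyte, liver and muscle markers PTPRC, CD3E, ALB and MYH7 at 0.182 CPM or below. INA, VIM, KRT8 and KRT18 were also present (at least 3.04 CPM), while PAX2 was near 0 (at most 0.787 CPM). CNOT1, the large scaffold subunit of Ccr4-Not, is the target of another siRNA in the gradient experiment and so checks the labels. It stood at 445, 476 and 469 CPM in polysomal replicates 1, 2 and 4, but at 25.4 in the library labelled polysomal replicate 3. In polysomal RNA after CNOT1 siRNA the same number stood apart, with 628 CPM of CNOT1 in the library labelled replicate 3 and 22.7 to 30.8 in the other 3. These are CPM scaled by TMM factors of all 24 gradient libraries together, on which the library labelled control polysomal replicate 3 had 26.8. The CNOT1 count of polysomal replicate 3 thus opposes its label. Its log2 CPM correlated at r = 0.928 to 0.938 with the other polysomal libraries, which correlated at 0.980 to 0.991 among themselves (across genes at 10 CPM or more, a description). The 4 subpolysomal libraries held 237 to 305 CPM of CNOT1 and formed closer pairs, 1 with 2 (r = 0.990) and 3 with 4 (r = 0.984), with r = 0.933 to 0.962 between the pairs. Results are given with all 8 libraries and, where the library in doubt matters, without polysomal replicate 3.

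Most of the transcriptome was unevenly spread over the gradient. Of 15500 genes tested, 4693 (30.3%) had a higher share in the polysomal pool and 5404 (34.9%) in the subpolysomal pool (edgeR quasi-likelihood F-test, FDR below 0.05). A difference of at least 2-fold was called for 2372 genes (15.3%) in the polysomal and 3843 (24.8%) in the subpolysomal direction. Without polysomal replicate 3, 15893 genes were tested, and the calls were 4927 (31.0%) and 5850 (36.8%), of which 2330 (14.7%) and 3952 (24.9%) reached 2-fold. Among the 15500 genes tested in both fits, 4529 were called polysomal and 5203 subpolysomal in both, and 0 were called in opposite directions. The range was lopsided: log2 fold changes ran from -8.75 to 3.65, with a median of -0.06 and quartiles at -1.0 and 0.68. These percentages are the background over all genes tested, non-coding ones included. Groups of coding genes below are better read against the 12740 protein-coding genes tested. Of these, 4566 were higher in polysomal and 3349 in subpolysomal RNA (median 0.16, all 8 libraries). Where a group's highest or lowest member is named, it is among members with a mean of 10 CPM or more.

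The 10 protein-coding RNAs with the largest polysomal excess were led by COL4A1 and KMT2D. COL4A1, the α1 chain of basement membrane collagen IV (chr13:110801310-110959504, hg19), measured 124, 104, 94.7 and 124 CPM in polysomal replicates 1 to 4. In subpolysomal replicates 1 to 4 it measured 11.5, 10.8, 17.3 and 11.6 CPM. The groups were far apart, and the log2 fold change was 3.13 (SE 0.19, FDR 4.39e-07), or 3.22 without polysomal replicate 3. KMT2D, a histone H3 lysine methyltransferase of exceptional size (chr12:49412758-49454577), stood at 233, 174, 270.3 and 166 CPM in polysomal RNA. Its subpolysomal values were 20.8, 21.5, 33.4 and 24.2 CPM, again with no overlap (log2 fold change 3.08, SE 0.22, FDR 9.04e-07). The partner collagen chain COL4A2, encoded head to head with COL4A1 on the other strand, gave 2.65 (SE 0.35, FDR 5.22e-05). Both gene models overlap at their starts, and as the strand setting of the counting was not stated, reads there cannot be told apart.

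The other 7 of the 10 were RAB7A, PDIA3, CTSL, LAPTM4B, CD81, CENPW and TOP2B. RAB7A, the late endosomal GTPase, stood at 363 ± 33.8 CPM in polysomal and 55.1 ± 4.56 CPM in subpolysomal RNA (mean ± SD, n = 4 each), a 6.59-fold difference. PDIA3, a disulfide isomerase of the endoplasmic reticulum (ER), stood at 530.3 ± 46.0 against 82.4 ± 12.1 CPM. CTSL, the lysosomal protease cathepsin L, had a log2 fold change of 2.75, LAPTM4B, a lysosomal membrane protein, 2.73, and CD81, a tetraspanin of the cell surface, 2.68. CENPW, a small centromere protein, and TOP2B, the type II topoisomerase, completed the 10 with 2.70 and 2.66. All 10 were called with and without polysomal replicate 3. LAPTM4B was lowest in that library, with 279 CPM against 541 to 613 in the other polysomal libraries, and still lay above all 4 subpolysomal values of 66.8 to 86.0 CPM.

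**Figure D1:**
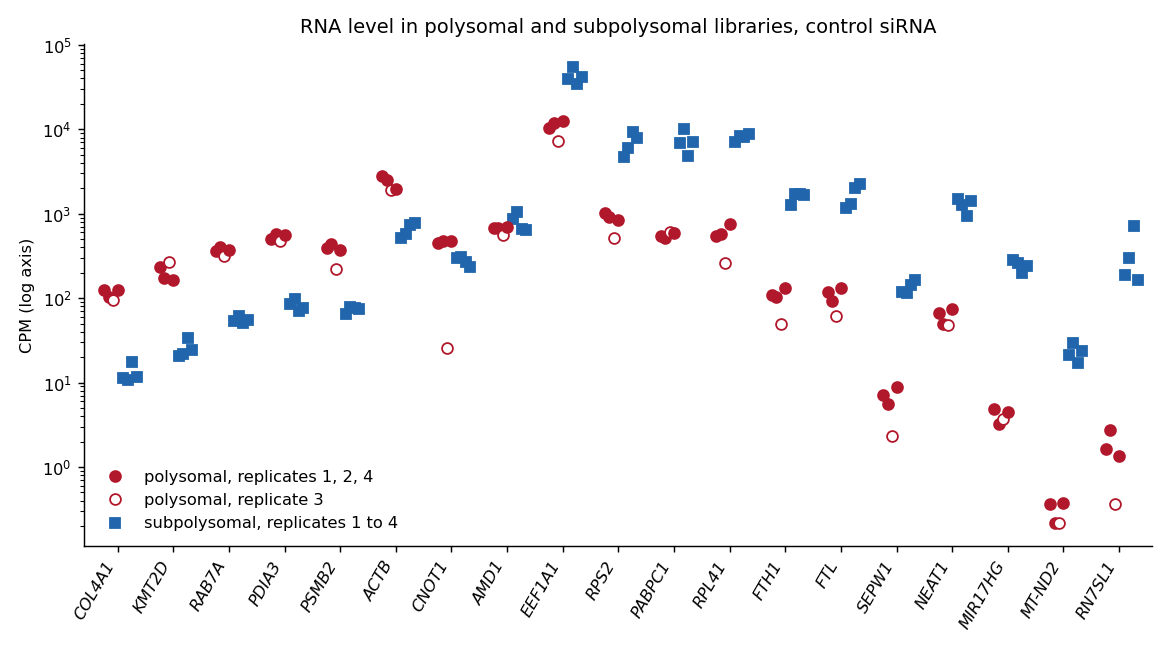
CPM on a log axis of 19 transcripts in each library, circles for polysomal RNA (open for replicate 3) and squares for subpolysomal RNA. The groups do not overlap for transcripts such as COL4A1, RPL41 and RN7SL1, they overlap for AMD1, and CNOT1 in polysomal replicate 3 stands apart at 25.4 CPM.

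Most messenger RNAs for ribosomal proteins lay on the other side. Ribosomal proteins and elongation factors are encoded by TOP mRNAs, whose 5′ end is a C followed by an unbroken run of pyrimidines through which growth signals are known to set their translation. The first 20 bases of the annotated mRNAs are shown for 5 mRNAs of the TOP lists, for EIF4A2 and for 3 mRNAs with a higher polysomal share, since this end is what the class shares (capitals mark the pyrimidine run from the first base, sequences are from GENCODE transcripts on GRCh37, the hg19 build of the counts).
RPL41 (chr12:56510417-56510436, plus strand): CTCTCggccttagcgccatt
RPS2 (chr16:2014808-2014827, minus strand): CTTCTTTTCCgacaaaacac
RPS6 (chr9:19380215-19380234, minus strand): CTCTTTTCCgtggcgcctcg
EEF1A1 (chr6:74230736-74230755, minus strand): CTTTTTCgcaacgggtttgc
TPT1 (chr13:45915299-45915318, minus strand): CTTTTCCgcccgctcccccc
EIF4A2 (chr3:186501366-186501385, plus strand): CTTTTCagtcgggcgctgag
ACTB (chr7:5570213-5570232, minus strand): accgccgagaccgcgtccgc
PDIA3 (chr15:44038636-44038655, plus strand): agacgcgcgagcgcaagcag
TUBB (chr6:30688129-30688148, plus strand): CTCTCagaaccttcctgccg

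Of the 47 large subunit ribosomal protein mRNAs tested, 45 were higher in subpolysomal and 0 in polysomal RNA, with a median log2 fold change of -1.32 against -0.06 over all genes tested. The small subunit gave 28 and 0 of 32 (median -1.65). Without polysomal replicate 3, the numbers were 45 and 0, and 27 and 1, the exception being FAU (0.87, FDR 0.0279). Members differed widely. RPL41, which encodes the shortest ribosomal protein, measured 545, 576, 264 and 752 CPM in polysomal RNA. Its subpolysomal values were 7061, 8353, 8181 and 8849 CPM, a 15.2-fold difference (log2 fold change -3.92, SE 0.30, FDR 1.44e-06). RPS2 had -3.09 (SE 0.28), RPLP0 of the ribosomal stalk -2.18 and RPS6, the S6 kinase substrate, -1.78 (SE 0.21). RPL3 stood at 2028 ± 442 against 3459 ± 444 CPM, a difference of only -0.77 (SE 0.19, FDR 0.00446), and RPL35 at -0.53 (SE 0.31) did not pass. The lowest value, -4.37 for RPL36A, comes from a gene model that overlaps the read-through RPL36A-HNRNPH2, and ribosomal proteins have many processed pseudogenes, so their counts may be partial.

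Among 16 further TOP mRNAs, 12 were higher in subpolysomal and 0 in polysomal RNA (median -0.94). EEF1A1, the elongation factor that delivers aminoacyl-tRNA, was the most abundant. It measured 10312, 11916, 7325 and 12643 CPM in polysomal RNA and 34280.4 to 55034 CPM in subpolysomal RNA, with a log2 fold change of -2.01 (SE 0.25, FDR 3.04e-05). PABPC1, the poly(A)-binding protein that is known to restrain its own mRNA, went furthest. It stood at 509 to 604 CPM in polysomal and 4843 to 10069 CPM in subpolysomal RNA (-3.68, SE 0.24, FDR 6.45e-07). TPT1, also called TCTP, had -2.46 (SE 0.18). At the upper end of the list, BTF3, a subunit of the nascent polypeptide-associated complex, had 0.36 (SE 0.18, FDR 0.108), and 0.52 (FDR 0.00407) without polysomal replicate 3.

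The same 5′ end was counted over all tested mRNAs. A first base of C within a pyrimidine run of at least 5 bases was found in 58 of 76 ribosomal protein mRNAs (76.3%), 13 of 14 of the other TOP list (92.9%) and 655 of 12092 annotated 5′ ends in all (5.42%). The 584 mRNAs with such an end outside both lists had a median log2 fold change of 0.09, with 184 higher in polysomal and 160 in subpolysomal RNA. The 11437 mRNAs without it had a median of 0.18. TUBB, the abundant β-tubulin shown above, begins with a run of 5 and stood at 2582 ± 272 against 689 ± 73.4 CPM (log2 fold change 1.91). Annotated starts may differ from the starts used in these cells.

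The 2 ferritin mRNAs lay far on the subpolysomal side. Ferritin stores iron, and its mRNAs carry an iron response element, a 5′UTR hairpin with the loop CAGTGN that iron regulatory proteins hold when iron is scarce. A search for C, 5 bases, CAGTGN and 5 bases that pair with the first 5 (G with T allowed) in the sense strand found 13 of 12630 tested mRNAs with a 5′UTR (0.103%). CAGTG alone, which overlaps this motif, was in 18.7% of 5′UTRs. The windows of 30 bases around the hairpin loop are shown for 3 members of the iron list, with the loop in capitals.
FTH1 (chr11:61735045-61735074, minus strand): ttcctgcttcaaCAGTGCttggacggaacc
FTL (chr19:49468592-49468621, plus strand): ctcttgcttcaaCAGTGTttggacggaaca
SLC40A1 (chr2:190445386-190445415, minus strand): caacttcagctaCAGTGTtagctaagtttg

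FTH1, the ferritin heavy chain, measured 109, 102, 49.7 and 130.5 CPM in polysomal RNA and 1279, 1719, 1728 and 1671 CPM in subpolysomal RNA. FTL, the light chain, measured 118, 91.4, 61.7 and 130.4 CPM and 1162, 1299, 2014 and 2273 CPM. The groups were far apart in both, and the log2 fold changes were -4.03 (SE 0.28, FDR 9.20e-07) and -4.07 (SE 0.30, FDR 1.26e-06). SLC40A1, the iron exporter ferroportin, was less abundant (1.99 ± 0.327 against 15.9 ± 5.80 CPM) with -3.0 (SE 0.28, FDR 4.63e-06). EPAS1, the hypoxia factor HIF2α, had -1.05 (SE 0.21, FDR 9.44e-04). All 5 mRNAs of the list were called subpolysomal with all libraries and 4 without polysomal replicate 3. Of all 13 mRNAs with the hairpin, 7 were higher in subpolysomal and 4 in polysomal RNA (median -0.59). The hairpin match is a description, and FTH1 and FTL also have processed pseudogenes that can share reads.

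Transcripts made inside mitochondria stayed at the top of the gradient. They are read by mitochondrial ribosomes, which do not enter cytoplasmic polysomes. All 12 mitochondrially encoded mRNAs tested were higher in subpolysomal RNA, with log2 fold changes from -6.26 to -2.74. MT-ND2, a subunit of complex I, measured 0.365, 0.219, 0.217 and 0.379 CPM in polysomal and 21.2, 29.8, 17.1 and 23.8 CPM in subpolysomal RNA (-6.26, SE 0.29, FDR 1.51e-07). At these polysomal levels it passed the filter on low counts through the subpolysomal libraries, as did MT-ND1 (0.180 to 0.801 CPM in polysomal RNA). A polysomal call was thus hardly possible for either. The same limit holds for any other of these mRNAs near 0 CPM in polysomal RNA. MT-ATP6, MT-CO2, MT-CO3, MT-ND4 and MT-ND1 had -5.64, -5.64, -5.51, -5.29 and -5.24 and were among the 10 coding RNAs with the lowest values. MT-CO1 (-3.30) and MT-ND5 (-2.74) were less extreme. The highest level of the 6 lowest, 117 CPM of MT-ND4, was in a subpolysomal library. The mitochondrial ribosomal RNA MT-RNR2 behaved alike, with 0.584 to 0.885 against 30.7 to 63.6 CPM (-6.02, SE 0.28).

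The other 4 of the 10 most subpolysomal coding RNAs were RPL36A, KRTCAP2, SEPW1 and NME1-NME2. KRTCAP2, a subunit of the oligosaccharyltransferase, stood at 0.758 to 1.26 against 26.9 to 39.3 CPM (-4.95, SE 0.23). NME1-NME2 is a read-through model over 2 nucleoside diphosphate kinase genes whose reads cannot be told apart from theirs, and had -4.41. SEPW1, which encodes selenoprotein W, measured 7.19, 5.57, 2.31 and 8.89 CPM in polysomal and 117, 116, 144 and 166 CPM in subpolysomal RNA (-4.50, SE 0.35, FDR 1.57e-06).

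Selenoprotein mRNAs, which decode a UGA stop codon as selenocysteine, did not move as a class. Of 18 tested, 6 were higher in polysomal and 5 in subpolysomal RNA (9 and 5 without polysomal replicate 3), and the median was 0.30. The glutathione peroxidases GPX4 (-1.95, SE 0.40, FDR 0.00122) and GPX1 (-1.86, SE 0.49, FDR 0.00566) joined SEPW1. The thioredoxin reductase TXNRD1 (339 ± 66.8 against 141 ± 23.6 CPM, 1.27) and the methionine sulfoxide reductase MSRB1 (1.37, SE 0.29) were higher in polysomal RNA.

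Protein complexes of folding and degradation were strongly polysomal. Of 33 proteasome subunit mRNAs, 30 were higher in polysomal and 0 in subpolysomal RNA, with a median log2 fold change of 1.18. PSMB2, a β subunit of the core particle, stood at 392, 433, 221 and 374 CPM against 64.4, 77.8, 75.7 and 74.6 CPM (2.28, SE 0.20, FDR 3.28e-06). PSMD14, the deubiquitinase of the lid, had 2.10 (SE 0.15), while PSMA1, with 144 to 232 against 187 to 233 CPM, overlapped between the pools (-0.13, SE 0.16). All 8 subunits of the cytosolic chaperonin CCT were higher in polysomal RNA, from TCP1 (0.48, FDR 0.029) to CCT4 (1.73), but the call of TCP1 was lost under 8 of 20 alternatives (FDR 0.0513 to 0.145 there). Of the tubulins that CCT folds, 9 of 13 were higher in polysomal and 3 in subpolysomal RNA. Paralogs split here: TUBA1B, an abundant α-tubulin, measured 1059.7 to 1474 against 1697 to 2082 CPM (-0.63, SE 0.16, FDR 0.00395), whereas TUBB4A, TUBB and TUBA1A had 2.03, 1.91 and 1.82. TUBG2, a γ-tubulin, had -2.09 (SE 0.19), opposite to its paralog TUBG1 (1.91). Near-identical paralogs can share reads, so these values are less certain.

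Chaperones of the ER, whose mRNAs are read on the ER membrane, had the highest median of the lists after the tubulins (1.40). Of 18, 15 were higher in polysomal RNA and ERO1LB was lower (-0.42, SE 0.16, FDR 0.0327), a call that was lost under 15 of 20 alternatives (FDR 0.0502 to 0.348 there). HSPA5, the Hsp70 chaperone BiP, measured 562, 545, 945 and 604 CPM in polysomal and 151, 170.2, 123 and 154 CPM in subpolysomal RNA. No value overlapped and the log2 fold change was 2.15 (SE 0.20, FDR 5.03e-06). CALR, the lectin chaperone calreticulin, stood at 878 ± 67.5 against 209 ± 28.7 CPM (2.07) and PPIB, cyclophilin B, at 493 ± 72.7 against 97.8 ± 18.1 CPM (2.33). HSP90B1, the ER Hsp90, was an exception at 660.4 ± 57.4 against 595 ± 96.1 CPM (0.15, FDR 0.404). Basement membrane collagens and laminins had 11 of 17 higher in polysomal and 0 in subpolysomal RNA (median 1.04), including LAMC1 (1.62) and FN1, fibronectin (1.09, SE 0.19), but not LAMB2 (-0.23, SE 0.33).

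Genes of cholesterol synthesis and uptake gave 13 and 0 of 22 (median 0.65), with DHCR7, the last enzyme of the pathway, at 1.64 (SE 0.20). Of 50 RAB GTPases, 27 were higher in polysomal and 11 in subpolysomal RNA, between RAB7A at 2.72 and RAB40B at -2.36 (SE 0.27). The SLC transporters were mixed, with 77 and 45 of 206 and a median of 0.17. At their low end SLC25A23, a mitochondrial carrier, had 22.6 to 56.7 against 535 to 689 CPM (-3.82, SE 0.27, FDR 9.51e-07). At their high end SLC52A2, a riboflavin transporter, had 2.18 (SE 0.39).

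**Figure D2:**
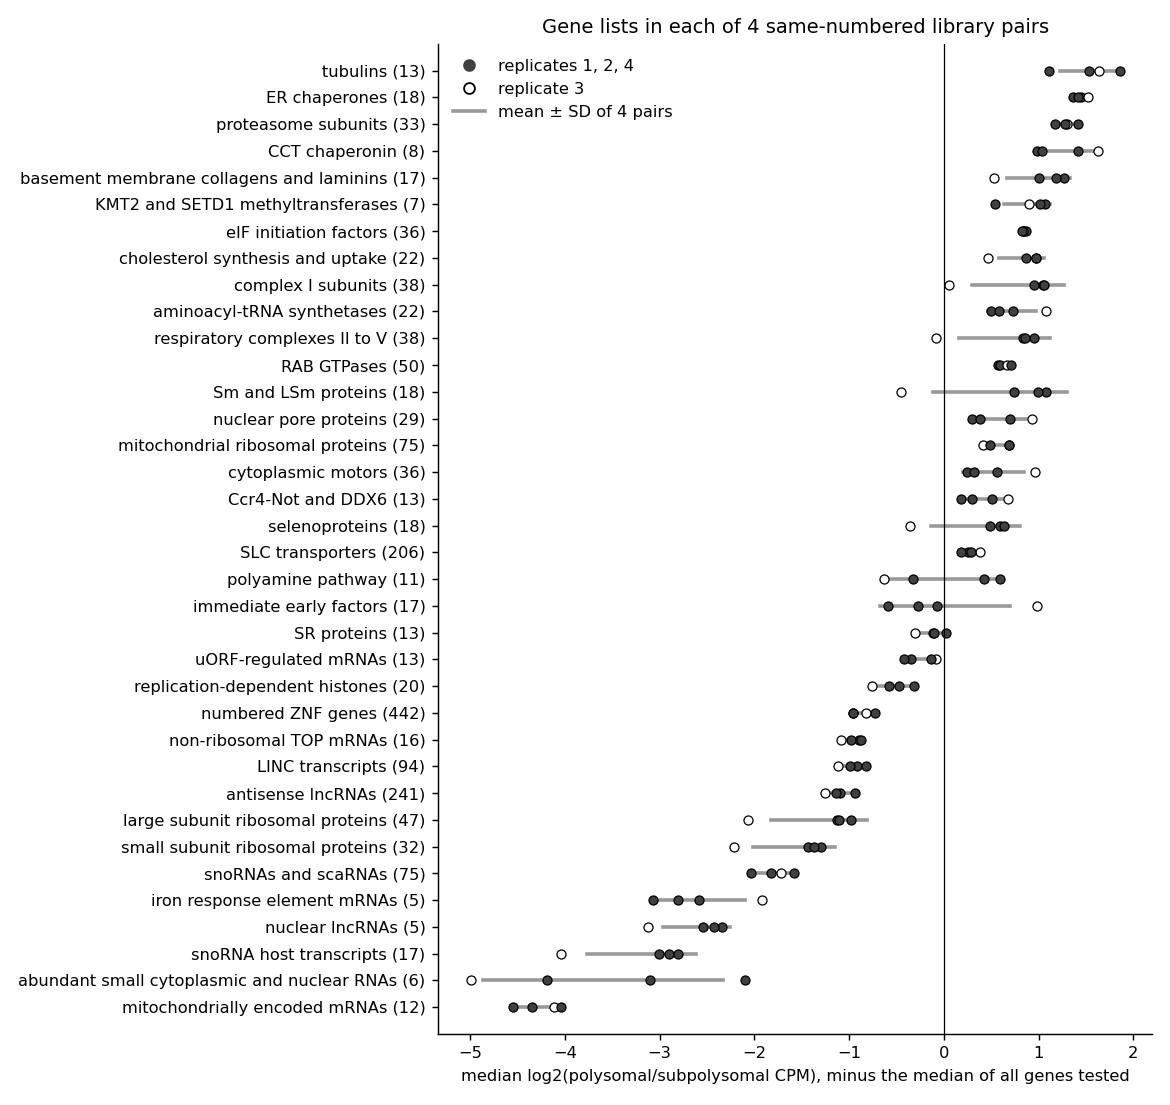
Median log2 ratio of polysomal to subpolysomal CPM (pseudocount 0.5 CPM) of each gene list in each of 4 same-numbered library pairs, minus the median of all genes tested, with bars for the mean ± SD and the number of tested members in brackets. ER chaperones lie at 1.44 ± 0.07 and mitochondrially encoded mRNAs at -4.26 ± 0.23, and the pair that holds polysomal replicate 3 (open) stands apart for respiratory complexes, Sm and LSm proteins and immediate early factors.

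Initiation factors were counted apart from those on the TOP list. Of 36 initiation factor mRNAs, 24 were higher in polysomal and 5 in subpolysomal RNA (median 0.78), and the list median varied little between the library pairs (0.84 ± 0.02, mean ± SD of 4 pairs, relative to all genes). EIF5A, which helps ribosomes past difficult peptide bonds, stood at 1888, 2001, 909 and 1621 CPM against 326, 357, 412 and 398 CPM (2.10, SE 0.23, FDR 1.54e-05). EIF4G1, the scaffold of the cap-binding complex eIF4F, had 1.40 (SE 0.19). EIF4A2, the paralog of the helicase eIF4A1 that the study centres on, was higher in subpolysomal RNA, and its annotated 5′ end, shown above, is a C-led pyrimidine run although it is on the initiation factor list and not the TOP list. It measured 237, 246, 220.0 and 251 CPM in polysomal and 696, 709, 546 and 613 CPM in subpolysomal RNA, so the groups did not overlap (-1.43, SE 0.14, FDR 6.15e-06, and -1.37 without polysomal replicate 3). EIF4A1 was counted at 1.58 to 3.12 against 10.7 to 16 CPM (-2.43, SE 0.24). These are low values for so abundant an mRNA, and its gene model overlaps the read-through SENP3-EIF4A1 and the snoRNA gene SNORD10, so the count is uncertain. EIF4EBP2, an inhibitor of eIF4E, had -1.54 (SE 0.41, FDR 0.00568), with 61.3 CPM in polysomal replicate 3 against 301 to 324 in the other polysomal libraries.

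Aminoacyl-tRNA synthetases and their cofactors gave 18 of 22 higher in polysomal and 1 in subpolysomal RNA (median 0.66). WARS, the tryptophan enzyme, had tight replicates of 169 ± 6.37 against 57.6 ± 3.75 CPM (1.56, SE 0.12, FDR 1.38e-06), and QARS, the glutamine enzyme, was the exception (256 ± 6.54 against 566 ± 70.2 CPM, -1.15). Ccr4-Not components and DDX6, which remove poly(A) tails and repress mRNAs, gave 7 and 1 of 13 (median 0.36). Without polysomal replicate 3 the numbers were 9 and 2. The helicase DDX6 had 0.59 (SE 0.16, FDR 0.00562), the deadenylase CNOT6L 1.34 (SE 0.22) and the deadenylase CNOT7 -0.55 (SE 0.22, FDR 0.0463). CNOT7, the only subpolysomal call of this list with all libraries, lost it under 11 of 20 alternatives, RLE factors, DESeq2 and no filter included (FDR 0.0538 to 0.17 there). CNOT1 itself had 0.35 (SE 0.59, FDR 0.617) with all libraries and 0.76 (FDR 2.17e-04) without polysomal replicate 3.

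Housekeeping mRNAs were not alike. ACTB, β-actin, stood at 2765, 2534, 1896 and 1941 CPM in polysomal and 514, 572, 742 and 775 CPM in subpolysomal RNA (1.81, SE 0.20, FDR 1.40e-05). GAPDH, the glycolytic enzyme, overlapped between the pools with 1609.9 to 3032 against 1197 to 1988 CPM (0.67, SE 0.23, FDR 0.0231), and the call was lost under 7 of 20 alternatives, with FDR 0.0698 under the replicate block and 0.0563 with at least 10 counts in every library. HSPA8, the constitutive cytosolic Hsp70, had 0.22 (SE 0.20, FDR 0.342).

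Nuclear-encoded respiratory subunits and mitochondrial ribosomal proteins, which are read in the cytoplasm, differed sharply from mitochondrially encoded ones. Of 38 complex I subunits, 23 were higher in polysomal and 5 in subpolysomal RNA (median 0.74). Complexes II to V gave 20 and 3 of 38 (median 0.67), and mitochondrial ribosomal proteins 40 and 6 of 75 (median 0.52). NDUFB6, a small membrane subunit of complex I, measured 63.4, 61.8, 25.9 and 48.1 CPM against 7.67, 10.5, 11.7 and 9.51 CPM (2.34, SE 0.27), and ATP5G3, a c subunit of ATP synthase, had 1.94 (SE 0.24). MRPL3 had 1.82 (SE 0.14) and MRPS25 -2.0 (SE 0.15). ATP5E, the ε subunit, had -1.10 (SE 0.34), and NDUFA11 had -1.12 (SE 0.44, FDR 0.0419, and 0.094 without polysomal replicate 3, lost under 9 of 20 alternatives). In the pair that holds polysomal replicate 3, the list medians relative to all genes were 0.05 for complex I and -0.08 for complexes II to V, against 0.95 to 1.06 and 0.84 to 0.95 in the other 3 pairs. Without that library the polysomal calls were 25, 29 and 48. The Sm and LSm proteins of the splicing machinery, which are also small, showed the same library dependence. They gave 9 and 3 of 18 (12 and 3 without polysomal replicate 3), with a list median of -0.45 in that pair and 0.74 to 1.08 in the others. SNRPD3 had 1.91 (SE 0.17). NAA38, the lowest of the list, had -1.12 (SE 0.13), but which gene was counted under this symbol is uncertain, and it may not be a splicing protein.

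Long mRNAs of nuclear pores and chromatin were moderately polysomal, while cytoskeletal motors lay nearer to all protein-coding genes once polysomal replicate 3 was left out. Kinesins and dyneins gave 18 and 5 of 36 (median 0.55, and 16 and 7 with a median of 0.36 without polysomal replicate 3), nuclear pore proteins 17 and 1 of 29 (median 0.55), and the KMT2 and SETD1 histone methyltransferases 4 and 0 of 7 (median 0.46). Without polysomal replicate 3, all protein-coding genes gave 4781 and 3611 of 12844 (median 0.13). The pair medians of the motors relative to all genes were 0.25, 0.32, 0.96 and 0.56. Those of all protein-coding genes were 0.19, 0.18, 0.26 and 0.18. DYNC1H1, the dynein heavy chain, stood at 153, 113, 546 and 143 CPM in polysomal and 68.2, 61.1, 91.1 and 75.3 CPM in subpolysomal RNA. The 546 CPM came from polysomal replicate 3, without which the log2 fold change dropped from 1.69 (SE 0.44) to 0.91. KIF18B, a mitotic kinesin, had -1.08 (SE 0.25), NUP210 1.83 (SE 0.23) and NUPL2 -0.70 (SE 0.15). KMT2A and KMT2C had 1.75 and 1.79, and KMT2B, with 33.1 to 78.7 against 25.6 to 73.8 CPM, 0.20 (SE 0.35).

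Zinc finger mRNAs, which encode mostly DNA-binding repressors, were on the subpolysomal side. Of 442 numbered ZNF genes, 312 were higher in subpolysomal and 10 in polysomal RNA (315 and 13 of 444 without polysomal replicate 3), with a median log2 fold change of -1.0. ZNF121 stood at 55.7 ± 12.4 against 594 ± 83.8 CPM (-3.42, SE 0.20, FDR 3.84e-07), and ZNF428 marked the other end (1.59, SE 0.37). Of 20 replication-dependent histone genes, 11 were higher in subpolysomal and 3 in polysomal RNA. Their mRNAs normally end in a stem-loop and not in a poly(A) tail, so a poly(A) kit sees only a part of them. HIST1H2BK had 1.16 (SE 0.16).

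mRNAs that are known to be restrained by upstream reading frames were divided. Of 13, 6 were higher in subpolysomal and 3 in polysomal RNA (median -0.31). ATF4, the stress response activator whose upstream frames block its main frame in unstressed cells, measured 309, 349.8, 353 and 458 CPM in polysomal and 897, 966, 1183 and 1221 CPM in subpolysomal RNA (-1.54, SE 0.17, FDR 1.65e-05). DDIT3, also called CHOP, had -1.58 (SE 0.37), or -2.17 without polysomal replicate 3. PPP1R15A and PPP1R15B, which bring phosphatase to eIF2α, had -0.69 (SE 0.21) and -0.83 (SE 0.14). EPRS, a tRNA synthetase, had 1.36 (SE 0.29), or 0.97 without polysomal replicate 3, which held 697 CPM against 263 to 351.

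In the polyamine pathway, SAT1, the acetyltransferase that starts polyamine breakdown, measured 13.2 to 18.6 against 68.8 to 81.5 CPM (-2.32, SE 0.16, FDR 7.81e-07). SMS, spermine synthase, had 1.38 (SE 0.17) and AZIN1, an antizyme inhibitor, 0.68 (SE 0.15). The regulated mRNAs ODC1, AMD1 and OAZ1 had 0.20, -0.31 and -0.30 and did not pass (FDR 0.346, 0.159 and 0.433). Of 11 members 2 were higher in polysomal and 3 in subpolysomal RNA (median -0.29), and without polysomal replicate 3 the numbers were 3 and 2. SR splicing factors were also split, with 5 in each direction of 13. SRSF6 had -1.68 (SE 0.15), SRSF3 1.07 (SE 0.18) and SRSF1 1.02.

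Immediate early transcription factors were barely separated, with 1 of 17 higher in each pool: MYC (0.59, SE 0.21, FDR 0.0249, lost under 4 of 20 alternatives) and KLF6 (-0.61, SE 0.13, FDR 0.00191). Without polysomal replicate 3, 8 were higher in subpolysomal RNA and 1 in polysomal RNA, and the median went from 0.24 to -0.52. EGR1, a growth factor response gene, measured 3.51, 3.95, 114 and 5.98 CPM in polysomal and 10.6, 10.7, 15.1 and 16.3 CPM in subpolysomal RNA. The library in doubt alone exceeded the subpolysomal range, and the log2 fold change went from 1.28 (SE 0.95, FDR 0.255) to -1.53 (FDR 3.45e-04) without it. JUN had 0.10 (SE 0.28) and -0.24.

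Non-coding RNA was overwhelmingly subpolysomal. Of 434 genes annotated as lncRNA, 347 were higher in subpolysomal and 13 in polysomal RNA (median log2 fold change -1.64), and of 75 snoRNA genes 74 and 0 (median -4.06). Processed pseudogenes gave 73 and 12 of 119 (median -1.36), whereas 12740 protein-coding genes gave 3349 and 4566 (median 0.16). A further 1800 tested symbols had no match in the annotation and gave 1305 and 87. RNAs near 0 CPM in polysomal RNA could enter these classes only through the subpolysomal libraries. By symbol, LINC transcripts gave 67 and 2 of 94 and antisense lncRNAs 200 and 8 of 241. Antisense genes share their locus with a coding gene, and the strand setting of the counting was not stated, so reads of the partners cannot be told apart.

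RN7SL1, the RNA of the signal recognition particle, measured 1.64, 2.72, 0.361 and 1.35 CPM in polysomal and 189, 296, 718 and 165 CPM in subpolysomal RNA. RN7SL2, its close copy, ran from 0.0361 to 0.526 against 15 to 78.8 CPM, and the log2 fold changes were -7.83 (SE 0.66, FDR 2.61e-06) and -7.26 (SE 0.67). The RNase MRP and RNase P RNAs RMRP and RPPH1 were at or near 0 in polysomal RNA (at most 0.0361 and 0.073 CPM), against 0.564 to 19.4 and 1.81 to 12 CPM. These small RNAs lack poly(A) tails, so a poly(A) kit samples few of them. All 6 of this list were called subpolysomal. RN7SL2, RMRP and RPPH1, so low in polysomal RNA, passed the filter on low counts through the subpolysomal libraries. A polysomal call was thus hardly possible for them. SCARNA15, a guide RNA of Cajal bodies, had -5.34 and SNORD17 -4.53. Of 409 snoRNA and scaRNA rows, 183 had counts and 75 were tested, of which 74 were called subpolysomal. The same limit holds for any of them near 0 CPM in polysomal RNA.

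MIR17HG, the host transcript of an oncogenic microRNA cluster (chr13:91999940-92049846), measured 4.82, 3.24, 3.68 and 4.47 CPM in polysomal and 280.2, 262, 197 and 243 CPM in subpolysomal RNA. It had the smallest FDR of the genes named here (-5.92, SE 0.20, FDR 4.76e-08). NEAT1 and MALAT1, which are retained in the nucleus, stood at 59.3 ± 12.7 against 1277 ± 234 CPM (-4.43) and 22.4 ± 4.49 against 351 ± 59.9 CPM (-3.97). Nuclei were pelleted before the gradient, and whether RNA from nuclei reached the subpolysomal pool was not tested. TUG1 had -1.71 and KCNQ1OT1 -0.23 (SE 0.18, FDR 0.286), so that 4 of 5 nuclear lncRNAs were called subpolysomal.

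Host transcripts carry snoRNAs in their introns, and their spliced remainder is known in many cases to be degraded by nonsense-mediated decay. All 17 tested were higher in subpolysomal RNA (median -3.17), from SNHG5 (-4.91, SE 0.32) to SNHG11 (-1.83, SE 0.21). GAS5 stood at 53.1, 52.2, 33.9 and 75.6 CPM in polysomal and 699, 762, 729 and 654 CPM in subpolysomal RNA (-3.73, SE 0.23, FDR 4.90e-07), and SNHG1 at 57.6 ± 18.4 against 519 ± 25.9 CPM (-3.17). The lowest antisense transcript was MORF4L2-AS1 (-5.24), and the lowest LINC transcript LINC00338 (-3.65).

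The rule for names found 4 genes of other classes than protein-coding that were higher in polysomal RNA, namely UBBP4, a ubiquitin pseudogene (51.1 ± 13.1 against 16.7 ± 2.78 CPM, 1.62, SE 0.21), MIR600HG (20.4 ± 5.22 against 6.91 ± 1.12 CPM, 1.56), H3F3AP4 (1.51, SE 0.28) and RCN1P2 (1.40, SE 0.17). UBBP4, H3F3AP4 and RCN1P2 are pseudogenes that can take reads of their parent mRNAs, and MIR600HG overlaps STRBP on the same strand. The highest antisense and LINC symbols at 10 CPM or more were RPA3-AS1 (0.91, SE 0.24) and LINC00493 (0.19, SE 0.21, FDR 0.441, not called), but the annotation used here gives both as protein-coding, so the lists made by symbol are not purely non-coding.

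**Figure D3:**
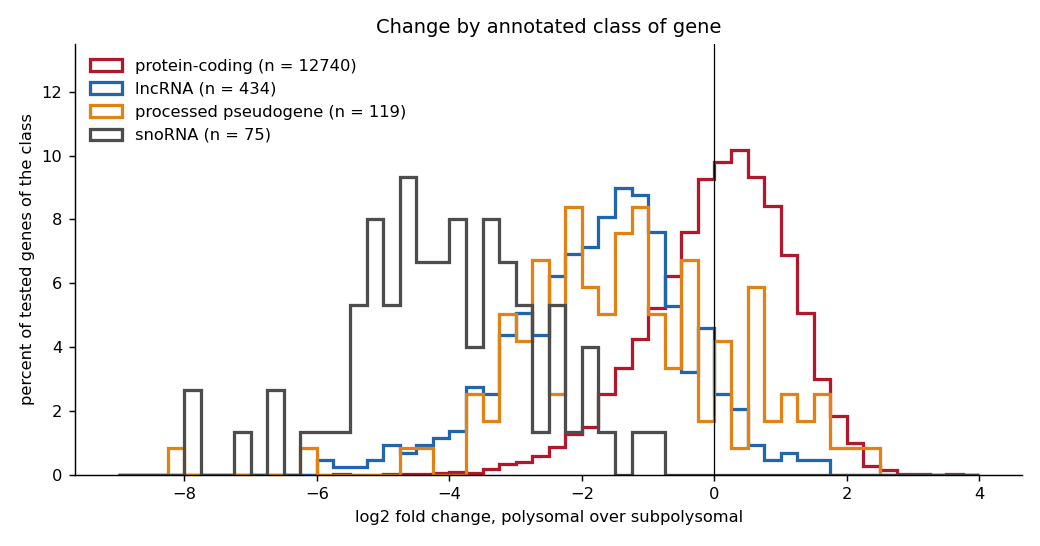
Percent of tested genes of each annotated class per bin of 0.25 in the log2 fold change, polysomal over subpolysomal. Protein-coding genes centre near 0.16, lncRNA genes near -1.64, processed pseudogenes near -1.36 and snoRNA genes near -4.06.

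Features of the mRNA were set beside the fold change for 12650 of the 12740 tested protein-coding genes. Across these genes the protein length had little rank relation to the log2 fold change (Spearman rho 0.05, a description across genes that share libraries). The extremes still differed. Proteins under 100 residues had a median log2 fold change of -0.43 (249 genes), and 30.9% were at least 2-fold higher in subpolysomal and 10.8% in polysomal RNA. Proteins of 1600 residues and over had a median of 0.53 (652 genes), with 4.14% and 25.3%. Between 100 and under 1600 residues the medians stayed at 0.06 to 0.22.

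The short end moved with polysomal replicate 3. In the pair that holds it, the shortest class had a median log2 ratio of -1.11 relative to all genes, against -0.20 to -0.02 in the other pairs, and rho was 0.20 against -0.05 to 0.03. Set against the other 3 polysomal libraries, it held less RNA of the shortest class (-0.83 on the log2 scale) and more of the longest (0.59). The largest departure of any other library from its group in a length class was 0.36. Whether RNA quality, another step or the siRNA given lies behind the departure of polysomal replicate 3 was not tested. The CNOT1 count of this library opposes its label. Without it, the median of the shortest class was -0.21, the median of the longest 0.38 and rho -0.02. The longest class had medians of 0.32, 0.40, 0.84 and 0.62 in pairs 1 to 4, against 0.19, 0.18, 0.26 and 0.18 for all protein-coding genes. In pair 1 the class of 100 to under 200 residues was higher still (0.40).

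Upstream start codons went with a lower polysomal share in each of the 4 pairs. The 7295 mRNAs without an AUG in the annotated 5′UTR had a median log2 fold change of 0.26, the 2509 with 1 of these had 0.06, and the 716 with 5 and over had -0.16. In the last class, 22.8% were at least 2-fold higher in subpolysomal and 8.52% in polysomal RNA. The relation was weak gene by gene (rho -0.12, and -0.14, -0.15, -0.05 and -0.11 in pairs 1 to 4). The GC content of the 5′UTR had its highest median, 0.31, in the class of 70 to under 80%, and its lowest, -0.22, under 50% (917 genes), with rho 0.10. Pairs disagreed on it, with rho of 0.21 and 0.16 in pairs 1 and 2 and -0.01 and 0.02 in pairs 3 and 4. Lengths of the 5′UTR and 3′UTR had rho of 0.01 and 0.03.

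**Figure D4:**
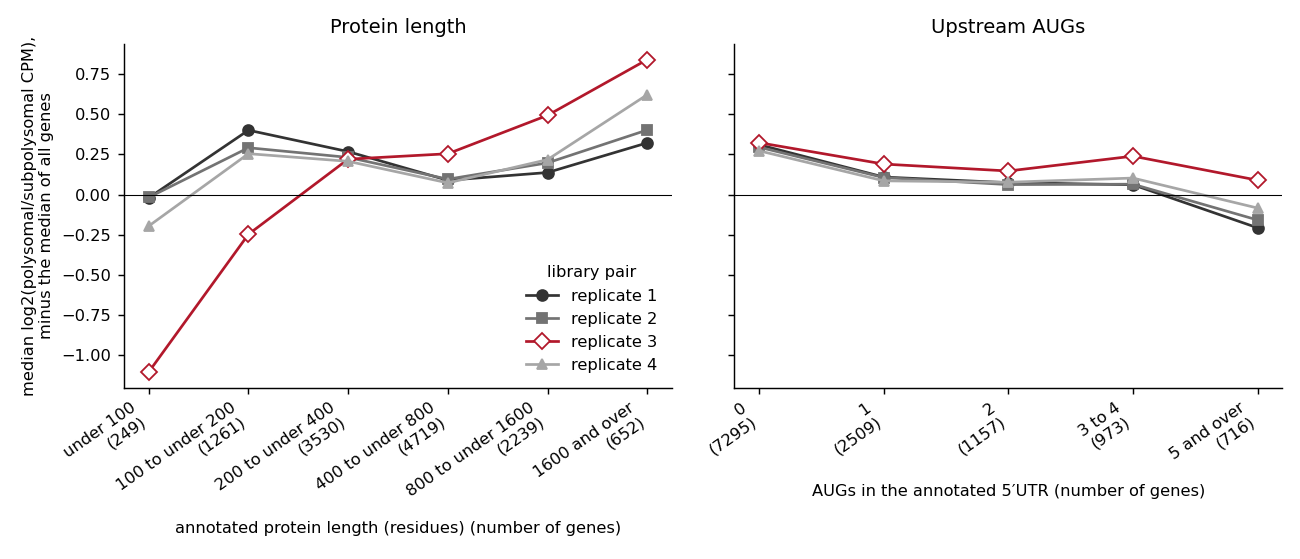
Median log2 ratio of polysomal to subpolysomal CPM, minus the median of all genes, by annotated protein length (left) and by AUGs in the 5′UTR (right), with 1 line per same-numbered library pair. The pair of replicate 3 falls to -1.11 for proteins under 100 residues while the other pairs stay at -0.20 or above, and all 4 lines fall from 0 to 5 and more upstream AUGs.

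Some transcripts that the study followed as examples were placed on the same scale. RAB12, a small GTPase, stood at 42.0, 46.3, 28 and 44 CPM in polysomal and 25.2, 31.0, 19.9 and 22.6 CPM in subpolysomal RNA (0.70, SE 0.19, FDR 0.00779). STX2, a syntaxin, had -0.32 (SE 0.26, FDR 0.293), and -0.07 without polysomal replicate 3. TIMM13, a mitochondrial import chaperone, had 83.7 to 225 against 44.7 to 175 CPM (0.64, SE 0.43, FDR 0.217). RPS21, a ribosomal protein, had -1.80 (SE 0.32, FDR 4.60e-04), with 114 CPM in polysomal replicate 3 against 239.6 to 337 in the other polysomal libraries.

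Leaving out polysomal replicate 3 changed few genes by much. The fold change moved by a median of 0.12 on the log2 scale, and by over 0.5 for 223 genes. Of the genes with all 8 libraries called, 164 polysomal and 201 subpolysomal calls were lost, and 390 and 372 were gained. Genes whose values moved most at 10 CPM or more, chosen after their values were seen, were high in this library alone. They include PVRL4, a nectin (39.5 CPM against 6.02 to 7.08 in the other polysomal libraries), CAD, the enzyme that starts pyrimidine synthesis (407 against 99.0 to 127 CPM), and UBR4, a giant ubiquitin ligase (430 against 116 to 156 CPM). UBR4 was called polysomal with and without it (1.97 and 1.38), while PVRL4 went from 0.28 (FDR 0.662) to -0.88 (FDR 9.50e-04).

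**Figure D5:**
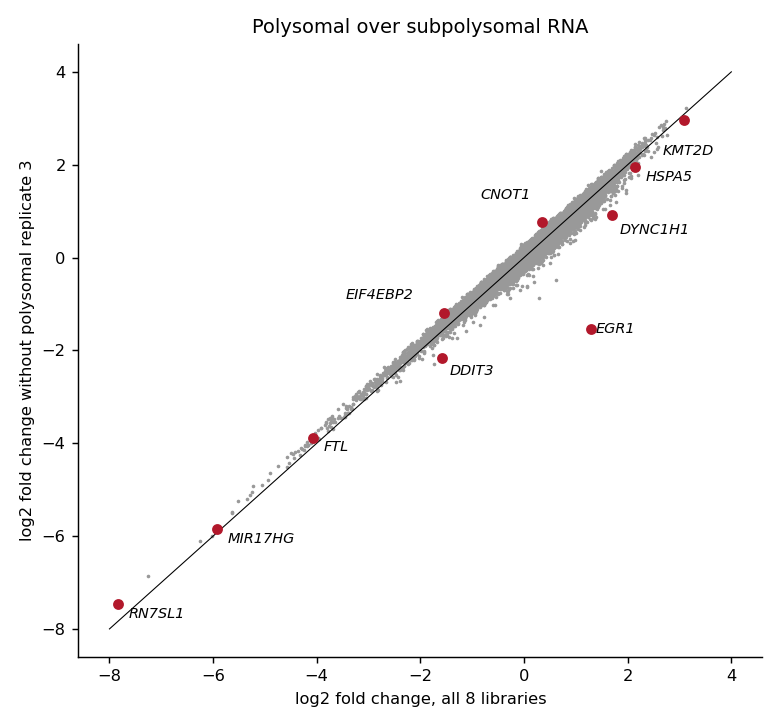
Log2 fold change of each gene at 10 CPM or more with all 8 libraries (horizontal) and without polysomal replicate 3 (vertical), with the line of equality. Most genes lie near the line, and EGR1 falls from 1.28 to -1.53.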

How the data were processed

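RNA-Seq of HEK293 cells with control siRNA was analysed for polysomal (fractions 6 to 11) and subpolysomal (fractions 1 to 5) RNA, n = 4 each, from the 24 libraries of the gradient experiment. The deposited files hold counts, whole numbers of reads per gene symbol, which the authors made with bcl2fastq 2.0, TopHat2 on hg19 and HTSeq. The counting mode and strand option are not given in the sources used here. The other deposited tables (immunoprecipitation and TNRC6 experiments, and the authors' own test results) were not used. Groups came from the labels.

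Counts were fitted with edgeR 4.0.16 (limma 3.58.1, R 4.3.3) on the 8 libraries: filterByExpr, TMM factors, quasi-likelihood F-test, two-sided, Benjamini-Hochberg FDR below 0.05 over all genes tested. The fit was tested on simulated data in which few genes changed, equally in both directions, and no library stood apart. That test thus does not cover the many lopsided changes of these data or the departure of polysomal replicate 3. CPM are given per library, or as mean ± SD. Totals of 16.5 to 27.3 M counts make counting error small except for RNAs near 0 CPM, and reads carry no molecular identifiers. The log2 ratio of a same-numbered pair used a pseudocount of 0.5 CPM, which understates changes of low genes. Genes were matched to GENCODE release 44 on GRCh37 (33529 by symbol, 1892 by an older synonym, 20344 not matched). Coordinates are 1-based.

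Genes named are fixed examples, the highest and lowest of each list at 10 CPM or more, and those with the largest change among called genes at a mean of 10 CPM or more without overlap between groups (10 coding and up to 5 other genes per direction). Other list members named were chosen after their values were seen. The comparison, lists and names were chosen with earlier results of these data known, so list counts are descriptions. Alternatives were RLE factors, library totals only, DESeq2 1.42.0, no filter, at least 10 counts in every library, all 24 libraries, a replicate block, a pseudocount of 5 CPM and leaving out each library or number. Same-numbered polysomal and subpolysomal libraries did not deviate together (r = -0.64, 0.17, -0.10 and -0.46), which does not exclude pairing. The main test did not take the numbers as pairs, and the replicate block is the alternative that does. Some genes and sequences are not reported here.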

Additional observations from a re-analysis of the deposited data

Results flagged for a closer look

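Dixon's test of the 4 libraries of a group was applied to 246 groups of values of the named transcripts, and 14 had 1 library apart from the others, of which 9 were polysomal replicate 3. Chance alone gives about 1 in 20 groups, and the groups share libraries. In polysomal replicate 3, EGR1 (114.1 CPM), DYNC1H1 (546.1 CPM), CNOT6L (129.4 CPM), DDIT3 (13.28 CPM) and HSPA5 (944.9 CPM) stood above the other 3 polysomal libraries. CNOT1 (25.37 CPM), EIF4EBP2 (61.27 CPM), ATP5E (50.95 CPM) and LINC00493 (14.36 CPM) stood below them. Among subpolysomal libraries, COL4A1 (17.32 CPM) and ATP5E (437.7 CPM) were highest and KCNQ1OT1 (10.21 CPM) lowest in replicate 3, TCP1 (1099.0 CPM) was highest in replicate 2, and FTH1 (1279.0 CPM) was lowest in replicate 1.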

How the results depend on the processing

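The numbers of genes called in each direction, at any size and at 2-fold, stayed within 1.5 times under every alternative. Leaving out libraries gave 3970 to 5065 polysomal and 4637 to 5850 subpolysomal genes, and DESeq2 gave 5146 and 5131. With no filter on low counts the median of all genes went from -0.06 to -0.25 on the log2 scale, and no other alternative moved it by over 0.1. With a replicate block the numbers were 4317 and 5087, and with the replicate block and without replicate 3 of both pools (chosen after seeing the data) 4677 and 5264. Deviations of same-numbered libraries correlated at -0.64, 0.17, -0.10 and -0.46. Being deviations from the means of only 4 libraries, they cannot decide whether same-numbered libraries came from the same gradient.

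Of 103 named genes called with all libraries, 91 were also called under every alternative run. The other 12 lost the call under at least 1 of 20: ERO1LB under 15, CNOT7 under 11, NDUFA11 under 9, TCP1 under 8, GAPDH under 7, MYC under 4, PPP1R15A under 3, and DDX6, KLF6, NUPL2, RAB12 and RPL3 under 1 each. The replicate block ended the calls of ERO1LB (FDR 0.0644), GAPDH (0.0698) and NDUFA11 (0.0898).

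Reversals of direction were found for the genes below, which were not called with all libraries. Under the replicate block, EGR1 had -0.58, CNOT1 -0.076 and JUN -0.020. With the block and without replicate 3 of both pools, LAMB2 had 0.16, EGR1 -1.48, OAZ1 0.27 and JUN -0.28. With at least 10 counts in every library, JUN had -0.016. Leaving out libraries, the log2 fold change of PSMA1 ranged from -0.19 to 0.019. The ranges were -0.42 to 0.16 for LAMB2, -0.059 to 0.61 for KMT2B, -1.53 to 1.75 for EGR1, -0.55 to 0.25 for OAZ1 and -0.24 to 0.35 for JUN. The value at the positive end for LAMB2 came without subpolysomal replicate 3, and those at the negative end for EGR1, KMT2B and JUN without polysomal replicate 3. The cause was not tested. Depth limits the RNAs near 0 CPM, such as RMRP in polysomal RNA.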
